A study of Mus musculus with 6 samples.

Results

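The 10 genes described here mark dendritic cells and macrophages, and their reads were followed in RNA of sorted mouse CD4+CD25+ T cells. They are the transcription factor genes Batf3 and Zbtb46, the growth factor receptor genes Flt3 and Csf1r, the surface receptor genes Itgax, Clec9a and Cd209a, and the genes Fscn1, Lyz2 and Cst3. They were chosen by name as lineage genes, all 10 were found among the 38924 genes of the deposited tables, 9 had at least 1 read and 7 had enough reads for a test. ILT3+CD4+CD25+ T cells (3 libraries) were compared with ILT3-CD4+CD25+ T cells (3 libraries). The inhibitory surface receptor ILT3 is best known from dendritic cells and monocytes. Both groups came from untreated wild-type (WT) mice of both sexes, 10 to 16 weeks old, and the organs were the spleen and the mesenteric lymph nodes. Cells were enriched for CD4 and CD25 on magnetic columns and then separated by flow cytometry into those with and without surface ILT3. Nothing in the labels says whether the libraries came from separate animals or pools, so p-values measure only how these samples vary, some of which may be technical.

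Dendritic cells present antigen to T cells, and macrophages take up dead cells and, in the red pulp of the spleen, old red blood cells. Conventional dendritic cells develop under FLT3 ligand, which acts through FLT3, and are set apart from other myeloid cells by ZBTB46. BATF3 is required for the type 1 branch, marked by CLEC9A and XCR1, while CD209A marks part of the type 2 branch. Macrophages depend on CSF1R, the receptor of CSF1 and IL-34, and make lysozyme from Lyz2. Some of these genes are also read in T cells: BATF3 is made by activated T cells, and cystatin C, the product of Cst3, is secreted by many cell types.

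Depth was 10768217 to 11960289 total gene reads in ILT3+ libraries and 9334370 to 13648274 in ILT3- libraries, so that 3 reads, the limit that a count of 0 allows, stand for 0.218 to 0.360 CPM (reads scaled to a common library size) in a library. Intervals and limits cover counting error only. All 6 libraries held the T cell genes of the sort. Reads of Foxp3 and Lilrb4 were uniquely placed in 19.0% and 50.9% of cases. Foxp3, the lineage factor of regulatory T cells, averaged 861 ± 127 CPM over ILT3+ libraries and 862 ± 233 CPM over ILT3- libraries, and Cd3e, part of the T cell receptor complex, 706 ± 123 CPM over ILT3+ libraries and 804 ± 162 CPM over ILT3- libraries (± SD, n = 3 per group). The gene of ILT3, named Lilrb4 in the files, averaged 332 ± 65.8 CPM over ILT3+ libraries and 4.46 ± 1.29 CPM over ILT3- libraries (± SD, n = 3 per group). Among the lineage genes, ILT3+ sample 1 stood apart from the other ILT3+ libraries in Csf1r and Itgax and, less far, in Lyz2. Results that rest on it are given with and without it. It also differed from them across genes at large, as ILT3- sample 1 did from its own group. Other genes were high in ILT3+ sample 1 too. Hspa1b was 52.7-fold and Fos 31.6-fold above the higher of the other ILT3+ libraries.

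The lineage genes did not move as one set. Batf3 and Fscn1 rose in ILT3+ cells, at similar levels in all 3 libraries; in bulk RNA, more cells of a type and more RNA per cell cannot be told apart. Csf1r and Itgax were high in ILT3+ sample 1. Elsewhere Itgax had 0 or 1 read and Csf1r had 3 to 28 reads per library. Clec9a and Cd209a had 1 read and no read in all 6 libraries together, and Flt3 had intron reads almost alone. Zbtb46, Lyz2 and Cst3 were measured in both groups, with all ILT3+ values above all ILT3- values. Of the 7 tested genes 2 were called, both higher, by edgeR's quasi-likelihood test at an adjusted p of 0.05, where 1.96% of all 13694 tested genes were called higher and 2.31% in either direction. The count was 1 without ILT3+ sample 1 or ILT3- sample 2 and 0 without ILT3+ sample 2, without ILT3+ sample 3 or without ILT3- sample 3, where 4, 4 and 3 genes had an unadjusted p under 0.05 by edgeR. Over all genes, 1460 of 14337, 1486 of 14344 and 1912 of 14409 had such a p in those fits. In 5 of the 10 genes the groups did not overlap, each time with ILT3+ higher, as in 11.4% of all tested genes. Genes with few ILT3- reads passed the filter on low counts only through the ILT3+ libraries, so these counts are no evidence of a shared rise.

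**Figure D1:**
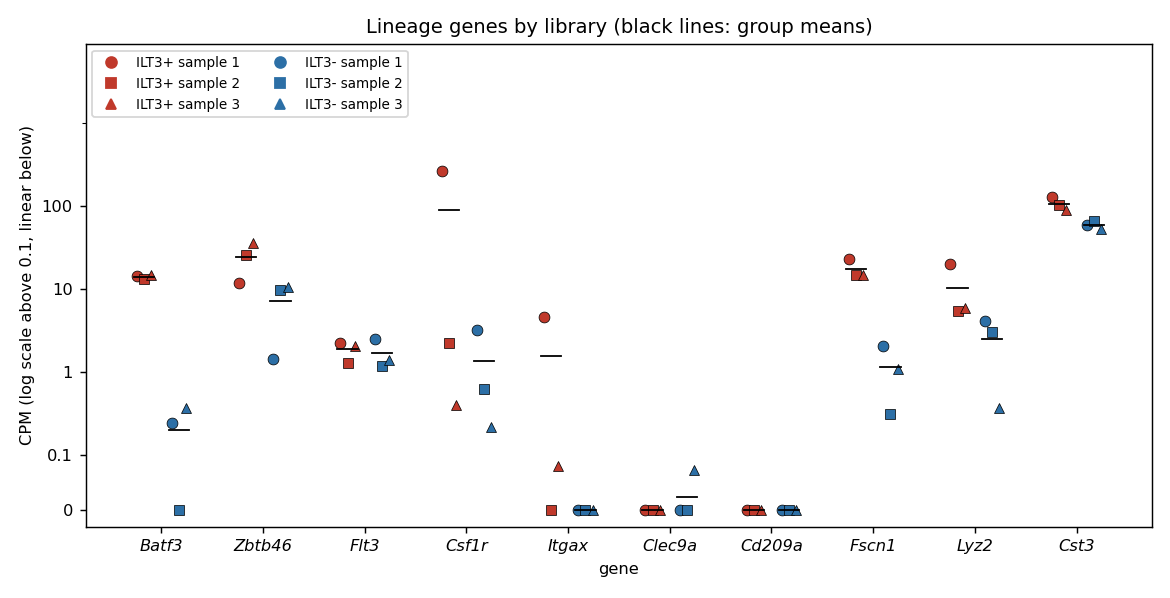
CPM of each lineage gene in the 3 ILT3+ (red) and 3 ILT3- (blue) libraries, on an axis that is logarithmic above 0.1 and linear below, with black lines at group means and the symbol giving the sample number. Batf3 and Fscn1 separate the groups, while Csf1r and Itgax are high in ILT3+ sample 1 (2833 and 49 reads) and Clec9a and Cd209a lie at or near 0.

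Batf3 had 154, 162 and 186 reads in ILT3+ samples 1, 2 and 3, against 2, 0 and 5 reads in ILT3- samples 1, 2 and 3. The ILT3+ libraries were close to each other and each was far above every ILT3- library. The mean level was 14.1 ± 0.953 CPM over ILT3+ libraries and 0.201 ± 0.185 CPM over ILT3- libraries (± SD, n = 3 per group), a log2 fold change of 6.06, with an SE of 0.85 and an adjusted p of 0.0150. Without ILT3+ sample 1 the log2 fold change was 6.05 (adjusted p = 0.0268). Leaving out ILT3+ sample 2 gave 6.13 on the log2 scale at an adjusted p of 0.0731, leaving out ILT3+ sample 3 gave 6.03 at 0.0734, and leaving out ILT3- sample 3 gave 6.97 at 0.0651, so each of these ended the call. The gene lies on GRCm38 chromosome 1, 191098414 to 191108943, and no other gene model of the files overlaps it. Introns held 38.5% of its reads, and the 33 reads across exon-exon junctions were all in ILT3+ libraries (10, 11 and 12). On exon reads alone the log2 fold change was 6.05 (adjusted p = 0.0230).

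Fscn1, which encodes the actin-bundling protein fascin of mature dendritic cells, had 245, 181 and 183 reads in ILT3+ samples 1, 2 and 3, against 17, 4 and 15 in ILT3- samples 1, 2 and 3. Again the groups did not overlap, and ILT3+ sample 1 was the highest library. The mean was 17.4 ± 4.85 CPM over ILT3+ libraries and 1.15 ± 0.866 CPM over ILT3- libraries (± SD, n = 3 per group), a log2 fold change of 3.94, with an SE of 0.69 and an adjusted p of 0.0311. Leaving out ILT3+ sample 1 gave 3.69 on the log2 scale at an adjusted p of 0.0631. The same value was 4.06 at 0.0996 without ILT3+ sample 2, 4.06 at 0.101 without ILT3+ sample 3, 3.49 at 0.0730 without ILT3- sample 2 and 3.93 at 0.140 without ILT3- sample 3, so each of these 5 ended the call. It held without both samples numbered 1 (4.37, adjusted p = 0.00976). The reads of Fscn1 (GRCm38 chromosome 5, 142960343 to 142973185) were uniquely placed in 100% of cases and 0.620% fell in introns.

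The start regions of these 2 called genes are shown because they rose together. They are from RefSeq (GRCm38.p6, plus strand for both) and run from 250 bases before to 50 after the gene start, chr1:191098164-191098463 for Batf3 and chr5:142960105-142960404 for Fscn1. Another annotation, GENCODE, starts Batf3 further upstream, at 191097847, so by that annotation the Batf3 window lies inside the gene. Capitals mark matches on either strand to 4 motifs.
Batf3: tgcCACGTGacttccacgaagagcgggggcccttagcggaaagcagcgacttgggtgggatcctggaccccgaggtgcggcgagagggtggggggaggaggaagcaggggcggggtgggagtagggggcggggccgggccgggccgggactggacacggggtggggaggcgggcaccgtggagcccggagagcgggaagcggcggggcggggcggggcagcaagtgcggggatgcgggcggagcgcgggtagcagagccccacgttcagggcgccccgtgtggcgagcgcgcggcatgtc
Fscn1: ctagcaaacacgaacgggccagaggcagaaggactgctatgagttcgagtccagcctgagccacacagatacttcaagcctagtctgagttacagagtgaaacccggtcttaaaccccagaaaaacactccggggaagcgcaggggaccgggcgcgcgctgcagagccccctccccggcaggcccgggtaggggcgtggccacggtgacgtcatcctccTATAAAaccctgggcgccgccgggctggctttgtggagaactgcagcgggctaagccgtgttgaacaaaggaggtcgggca
The motifs were TGA and TCA parted by any 1 base (AP-1, the kind of site that BATF factors bind with JUN partners), GAGGAAGT (PU.1, a factor that all of these myeloid lineages use) and CACGTG (the E-box, a site of basic helix-loop-helix and zipper factors). The last motif was the TATA box of core promoters, as TATAAA. Of 32851 mouse start regions of 300 bases, 7.81%, 3.20%, 7.15% and 13.6% held them in that order. The Batf3 window held 1 E-box match and the Fscn1 window 1 TATA match, and no 2 matches overlapped. Of the 10 genes, 9 had a start region in the table, and the AP-1 letters were found in those of Zbtb46 and Itgax. A match is a run of letters and was not tested as a binding site.

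Zbtb46, whose product marks conventional dendritic cells and their precursors, had 126, 319 and 451 reads in ILT3+ samples 1, 2 and 3, against 12, 125 and 145 in ILT3- samples 1, 2 and 3. In both groups the library numbered 1 was the lowest. On the CPM scale ILT3+ sample 1 (11.8 CPM) was just above the highest ILT3- library (10.5 CPM), so the groups did not overlap. The means were 24.5 ± 12.1 CPM over ILT3+ libraries and 7.27 ± 5.06 CPM over ILT3- libraries (± SD, n = 3 per group). The log2 fold change was 1.74 at an SE of 0.72 and an adjusted p of 0.337. With the sample number as a block the gene was called (log2 fold change 1.98, adjusted p = 0.0386), as it was without both samples numbered 1 (1.63, adjusted p = 0.0277). Without ILT3+ sample 1 alone it was not (2.07, adjusted p = 0.249). Introns of the gene (GRCm38 chromosome 2, 181387762 to 181459426) held 36.8% of its reads and only 8 reads of 1178 crossed an exon-exon junction.

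Csf1r had 2833, 28 and 5 reads in ILT3+ samples 1, 2 and 3, against 27, 8 and 3 reads in ILT3- samples 1, 2 and 3. A single library thus held 98.8% of the reads of the ILT3+ group, and ILT3+ samples 2 and 3 lay within the range of the ILT3- libraries on the CPM scale (2.25 and 0.399 CPM in ILT3+, against 0.218 to 3.24 CPM in ILT3-). The log2 fold change was 6.17, with an SE of 2.25 and an adjusted p of 0.268, and 0.00 without ILT3+ sample 1 (adjusted p = 1). The gene lies on GRCm38 chromosome 18, 61105572 to 61132149, and its model overlaps that of Hmgxb3 on the other strand. The signal of ILT3+ sample 1 was nevertheless that of spliced transcripts, with 2810 of 2833 reads in exons and 784 across exon-exon junctions.

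Itgax, which encodes CD11c, the integrin alpha chain of dendritic cells and of some macrophages, had 49, 0 and 1 reads in ILT3+ samples 1, 2 and 3, against 0 reads in each ILT3- library. All 50 reads were in exons and 21 crossed junctions, all 21 of them in ILT3+ sample 1. The group total was at least 13.4-fold higher in ILT3+ cells by the lower end of a 95% counting interval, a bound that rests on 1 library. Without ILT3+ sample 1 a total of 1 read was left in ILT3+ libraries, against 0 in ILT3- libraries, and the gene had too few reads for a test. It lies on GRCm38 chromosome 7, 128129547 to 128150656. Of its beta 2 integrin relatives, Itgb2, the shared partner chain, averaged 525 ± 119 CPM over ILT3+ libraries and 533 ± 262 CPM over ILT3- libraries (± SD, n = 3 per group, adjusted p = 0.991). Itgad, the neighbouring alpha D chain gene of red pulp macrophages, was also highest in ILT3+ sample 1, with 921, 29 and 36 reads in ILT3+ and 1, 7 and 2 in ILT3- samples 1, 2 and 3 (adjusted p = 0.108).

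Lyz2, which encodes lysozyme of macrophages and monocytes, had 212, 67 and 73 reads in ILT3+ samples 1, 2 and 3, against 34, 39 and 5 in ILT3- samples 1, 2 and 3. ILT3+ sample 1 was the highest library by 3.42-fold over the next ILT3+ library on the CPM scale, and the groups did not overlap. The mean was 10.4 ± 8.25 CPM over ILT3+ libraries and 2.5 ± 1.92 CPM over ILT3- libraries (± SD, n = 3 per group). The log2 fold change was 2.06 at an SE of 0.91 and an adjusted p of 0.374, and 1.18 without ILT3+ sample 1 (adjusted p = 0.664). Of its reads (GRCm38 chromosome 10, 117277334 to 117282274) 81.9% were uniquely placed. The neighbouring copy Lyz1 shares 15.4% of the 50-base stretches of Lyz2 transcripts and had 1 read in all libraries, so the split of shared reads between the copies is uncertain.

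Cst3, which encodes the protease inhibitor cystatin C, was well covered in all 6 libraries, with 1378, 1276 and 1127 reads in ILT3+ samples 1, 2 and 3, against 492, 848 and 736 reads in ILT3- samples 1, 2 and 3. The gene lies on GRCm38 chromosome 2, 148871722 to 148875692. Every ILT3+ library was above every ILT3- library, at 107 ± 20.1 CPM over ILT3+ libraries and 59.7 ± 6.60 CPM over ILT3- libraries (± SD, n = 3 per group). The log2 fold change was 0.84, with an SE of 0.20 and an adjusted p of 0.0856, and 0.69 without ILT3+ sample 1 (adjusted p = 0.167). It was called with the sample number as a block (0.83, adjusted p = 0.0314) and by DESeq2 (0.84, adjusted p = 0.0121). With the block 4 of the 7 tested genes were called higher, Batf3, Fscn1, Zbtb46 and Cst3, where 4.18% of all genes were called higher and 6.81% in either direction.

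Flt3 had 24, 16 and 26 reads in ILT3+ samples 1, 2 and 3, against 21, 15 and 19 in ILT3- samples 1, 2 and 3. The groups overlapped throughout, and the log2 fold change was 0.15, with an SE of 0.60 and an adjusted p of 0.955. Of its 121 reads (GRCm38 chromosome 5, 147330741 to 147400489) 96.7% lay in introns and none crossed a junction, so spliced Flt3 was not detectable at this depth. Clec9a, the receptor by which type 1 dendritic cells sense dead cells, had 1 intron read, in ILT3- sample 3, and 0 reads in all ILT3+ libraries. Cd209a, a lectin gene of type 2 and monocyte-derived dendritic cells, had 0 reads in all 6 libraries, and of its relatives Cd209b to Cd209g only Cd209c had any (3 reads in all). A count of 0 allows up to 0.239 to 0.281 CPM in an ILT3+ library.

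**Figure D2:**
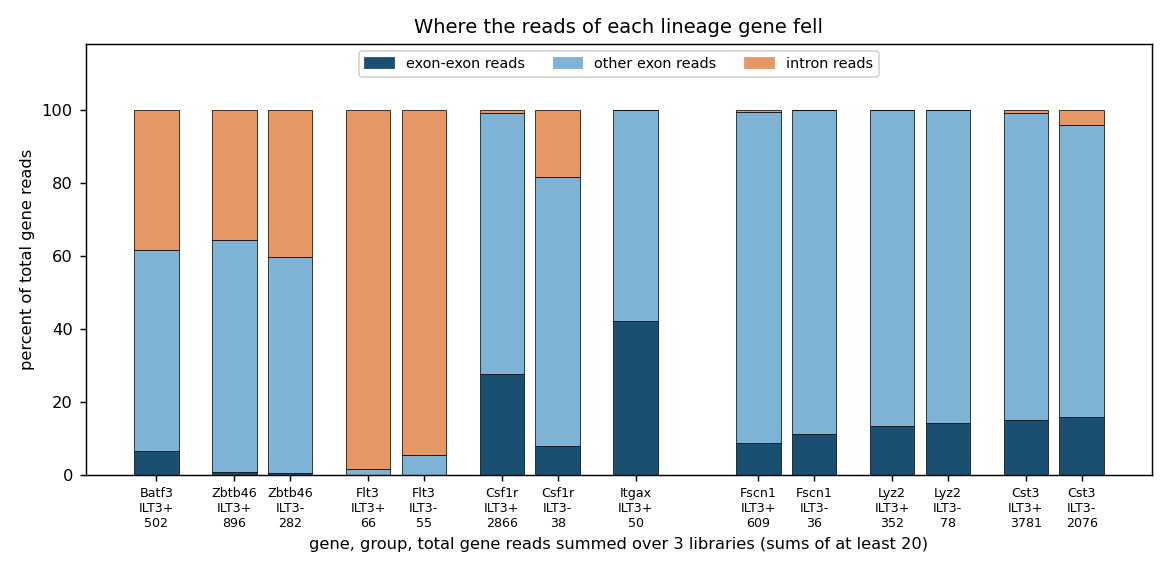
Percent of each lineage gene's total gene reads that crossed exon-exon junctions, lay elsewhere in exons or lay in introns, summed over the 3 libraries of a group and shown where the sum reached 20 (the sum is under each bar). Flt3 consists of intron reads almost alone in both groups, while Itgax and Csf1r in ILT3+ cells are exonic, with 21 and 790 junction reads.

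Levels can be set side by side between genes when exon reads are divided by exon length. In ILT3+ cells Cst3 was highest at 86.1 ± 14.3 exon reads per kilobase of exon (SD, n = 3), against 44.0 ± 4.39 in ILT3- cells. These levels were scaled to the gene reads of each library, without the TMM factors that CPM use. Batf3 followed at 12.5 ± 0.756 in ILT3+ and 0.169 ± 0.154 in ILT3- cells on this scale. Lyz2 stood at 8.28 ± 6.30 in ILT3+ and 1.87 ± 1.39 in ILT3- cells, and in ILT3+ cells its spread covered the means of both Batf3 and Fscn1. Fscn1 was at 5.86 ± 1.47 in ILT3+ and 0.358 ± 0.250 in ILT3- cells. Zbtb46 came below these at 1.93 ± 0.977 in ILT3+ and 0.500 ± 0.488 in ILT3- cells. Csf1r had no stable place in this order, at 53.4 in ILT3+ sample 1 but 0.483 in ILT3+ sample 2 and 0.0856 in ILT3+ sample 3. The T cell gene Cd3e stood at 452 ± 82.5 in ILT3+ and 475 ± 93.0 in ILT3- cells on the same scale.

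In ILT3+ sample 1 other macrophage genes were high along with Csf1r, and the lists below are counted without the 10 lineage genes. For the list counts, the shares over all 13694 tested genes were 1.96% called higher and 2.31% called in either direction. With the block they were 4.18% and 6.81%, and without both samples numbered 1 they were 4.48% and 5.64%. In the main edgeR fit 1889 of the 13694 genes had an unadjusted p under 0.05. Of 19 macrophage list genes other than Csf1r, 18 had at least 10 reads over all libraries, and in all 18 ILT3+ sample 1 was the highest of the 6 libraries, compared with 20.9% of all genes with that many reads. In 13 of the 18 it was at least 10-fold above both other ILT3+ libraries, compared with 2.14% of all genes. The summed level of the 19 genes was 1812, 199 and 182 CPM in ILT3+ samples 1, 2 and 3, against 111, 98.1 and 92.1 CPM in ILT3- samples 1, 2 and 3. Axl alone gave 149 and 119 CPM of this in ILT3+ samples 2 and 3. In ILT3- samples 1, 2 and 3 it gave 57.3, 74.4 and 69.1 CPM. Within the ILT3- group sample 1 was highest for some genes, such as Slc40a1 (4.93, 0 and 0 CPM) and Cd163 (4.93, 0.314 and 0.218 CPM). It was not the highest for Spic, Cd68, Mertk, Axl, Fcgr1, Mrc1, Slc11a1 or Siglec1. Of 12 tested genes of the list edgeR called 0, while 8 had an unadjusted p under 0.05, all of them higher. The count was 6 with the block and 2 of 8 tested without both samples numbered 1. The list's median log2 fold change was 3.74, against -0.02 over all tested genes. Siglec1, the sialoadhesin gene of marginal metallophilic macrophages, had 1 read in all.

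Among the genes of that list in ILT3+ sample 1 were several of red pulp macrophages, named here after their values were seen. They were picked from a list whose 18 genes with at least 10 reads were all highest there. The values thus do not assign the reads to 1 macrophage subset. Mrc1 (995, 60 and 54 reads in ILT3+ samples 1, 2 and 3), Cd163 (264, 5 and 14), Marco (89, 16 and 0) and Timd4 (80, 4 and 3) were highest there too. Slc40a1, the iron exporter ferroportin, had 3327, 1 and 27 reads in ILT3+ samples 1, 2 and 3, against 41, 0 and 0 in ILT3- samples 1, 2 and 3. Vcam1, an adhesion molecule of these macrophages, had 3618, 39 and 66 reads in ILT3+ and 95, 28 and 50 in ILT3- samples. Spic, their transcription factor, had 286, 19 and 5 reads in ILT3+ and 1, 3 and 5 in ILT3- samples. Hmox1, the haem-degrading enzyme, was lower in the other ILT3+ libraries but not near 0, with 2602, 219 and 257 reads in ILT3+ and 85, 25 and 66 in ILT3- samples. It was called without both samples numbered 1 (log2 fold change 2.52, adjusted p = 0.0312), as was Axl, a receptor for dying cells (0.93, adjusted p = 0.0292). C1qb, a complement subunit, had 1328, 37 and 31 reads in ILT3+ and 10, 5 and 1 in ILT3- samples (adjusted p = 0.151, with the block 0.0146), and Slc11a1, a metal transporter of phagosomes, 416, 35 and 44 in ILT3+ and 0, 8 and 1 in ILT3- samples (adjusted p = 0.107).

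**Figure D3:**
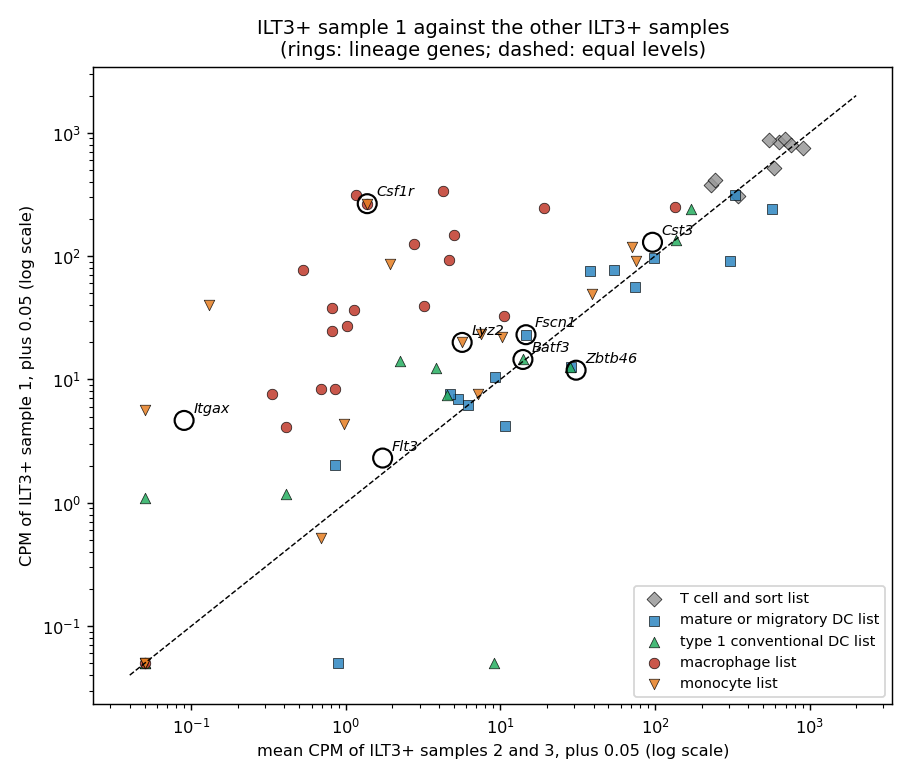
CPM of ILT3+ sample 1 (vertical) against the mean CPM of ILT3+ samples 2 and 3 (horizontal), both plus 0.05 on log axes, for genes of 5 marker lists, with rings around the lineage genes and a dashed line at equal levels. Most macrophage list genes lie above the line together with Csf1r, while T cell genes, Batf3, Fscn1 and Cst3 lie near it and Zbtb46 below it.

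ILT3+ sample 1 also held monocyte list genes. Of 12 such genes with at least 10 reads, without Csf1r and Lyz2, 6 were highest there and 3 were at least 10-fold above both other ILT3+ libraries, among them Treml4, with 424, 1 and 1 reads in ILT3+ and 0 in every ILT3- library. The sum of the list without both genes was 447, 233 and 195 CPM in ILT3+ samples 1, 2 and 3, against 191, 215 and 194 CPM in ILT3- samples 1, 2 and 3. Of 7 tested genes 1 was called higher, Ccr2, a chemokine receptor that T cells also use, at 80.6 ± 21.1 CPM over ILT3+ libraries and 24.2 ± 7.52 CPM over ILT3- libraries (± SD, n = 3 per group, log2 fold change 1.74, adjusted p = 0.0380). The 2 most abundant, Cx3cr1 and Ms4a6c, had log2 fold changes of -0.21 and -0.61 (adjusted p = 0.841 and 0.638). Of the reads of Cx3cr1 9.50% were uniquely placed and 97.4% lay in introns. By contrast the T cell and sort list summed to 5770, 4562 and 5362 CPM in ILT3+ samples 1, 2 and 3, against 6320, 4210 and 5105 CPM in ILT3- samples 1, 2 and 3. The part of the macrophage and monocyte genes in the values of Csf1r, Itgax and Lyz2 was not tested.

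**Figure D4:**
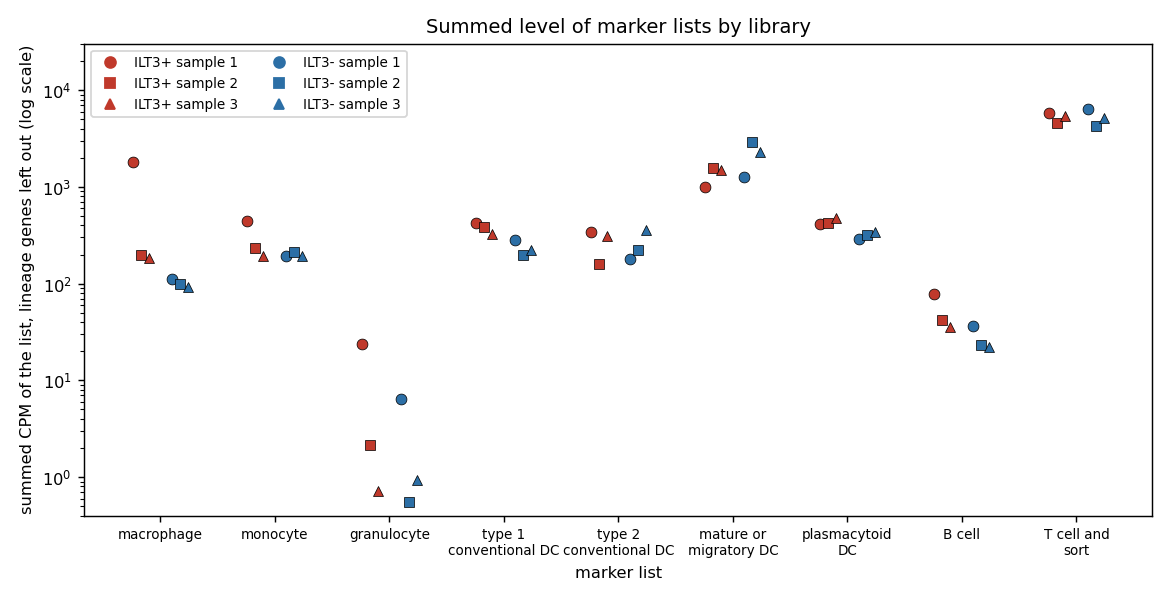
Summed CPM of 9 marker lists, each without the 10 lineage genes, in the 3 ILT3+ (red) and 3 ILT3- (blue) libraries on a log axis. The macrophage list stands at 1812 CPM in ILT3+ sample 1 and between 92.1 and 199 CPM in the other 5 libraries. In those 5 Axl alone held 57.3 to 149 CPM. The T cell and sort list spans 4210 to 6320 CPM.

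Other markers of type 1 dendritic cells were not called. Of 7 tested genes in that list edgeR called 0, while 2 had an unadjusted p under 0.05. Their median log2 fold change, over the 7, was 1.18, against -0.02 over all tested genes. Xcr1, the chemokine receptor of these cells, had 0, 85 and 140 reads in ILT3+ samples 1, 2 and 3, against 0, 16 and 20 in ILT3- samples 1, 2 and 3, and thus had no read in either library numbered 1 (log2 fold change 2.68, SE 1.58, adjusted p = 0.539). Without those 2 libraries it was called (2.75, adjusted p = 0.0320). None of the 261 reads of Xcr1 crossed an exon-exon junction, and 1.92% lay in introns. Cadm1 had the smallest p of the list (log2 fold change 3.10, adjusted p = 0.212 by edgeR). It had 151, 32 and 23 reads in ILT3+ and 4, 4 and 18 in ILT3- samples 1, 2 and 3. Its groups did not overlap on the CPM scale, and ILT3+ sample 1 held 73.3% of its ILT3+ reads. Irf8, the factor that works with BATF3, averaged 22.9 ± 13.1 CPM over ILT3+ libraries and 12.4 ± 5.71 CPM over ILT3- libraries (± SD, n = 3 per group, adjusted p = 0.533). Itgae, the CD103 integrin chain of dendritic cells and of many regulatory T cells, averaged 194 ± 53.6 CPM over ILT3+ libraries and 82.2 ± 63.4 CPM over ILT3- libraries (adjusted p = 0.324, with the block 0.0333). Ppt1, the other abundant gene of the list, had a log2 fold change of 0.07 (adjusted p = 0.916). The summed level of the list was 327 to 423 CPM in ILT3+ and 196 to 283 CPM in ILT3- libraries.

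Of 6 tested markers of type 2 dendritic cells edgeR called 0, likewise with the block, and 0 had an unadjusted p under 0.05. The summed level of the whole list of 11 genes, tested or not, was 159 to 343 CPM in ILT3+ and 179 to 358 CPM in ILT3- libraries. The most abundant was Irf4, a factor that regulatory T cells also use, at 174 ± 107 CPM over ILT3+ libraries and 200 ± 153 CPM over ILT3- libraries (± SD, n = 3 per group, adjusted p = 0.943). The remaining tested genes, Itgam, Cd7, Klf4, Epcam and Dtx1, had adjusted p of 0.668 to 0.943. Sirpa, the phagocyte receptor gene, had too few reads in most libraries for a test, with 688, 21 and 3 reads in ILT3+ and 1, 3 and 0 in ILT3- samples 1, 2 and 3.

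Some genes of mature dendritic cells were called higher, as Fscn1 was. Of 13 tested besides Fscn1, 4 rose and none fell by edgeR, where 1.96% of all tested genes were called higher. The median log2 fold change of the 13 was 0.77, against -0.02 over all tested genes. With the block 4 rose and 1 fell, where 4.18% of all tested genes were called higher. Those that rose without the block were Ccl22, Apol7c, Anxa3 and Cd83. Ccl22, a chemokine that draws in CCR4-bearing T cells, had 111, 114 and 116 reads in ILT3+ samples 1, 2 and 3 and 0 in each ILT3- library (adjusted p = 0.0110). Anxa3, an annexin gene, had 81, 58 and 58 reads in ILT3+ and 0, 2 and 1 in ILT3- samples (adjusted p = 0.0161), and Apol7c 65, 89 and 64 in ILT3+ and 1, 9 and 2 in ILT3- samples (adjusted p = 0.0419). All of these were at similar levels in the 3 ILT3+ libraries. With few ILT3- reads, Ccl22, Anxa3 and Apol7c passed the filter on low counts only through the ILT3+ libraries. The count of 4 is thus no evidence of a shared rise. Cd83, an activation marker that regulatory T cells share, was at 324 ± 12.1 CPM over ILT3+ libraries and 177 ± 11.0 CPM over ILT3- libraries (± SD, n = 3 per group, adjusted p = 0.0341). The 2 most abundant genes of the list, Ccr7 and Tmem123, had log2 fold changes of -1.51 and -0.84 (adjusted p = 0.327 and 0.442). Ccr7, a homing receptor that resting T cells carry too, was called lower with the block (adjusted p = 0.0207). The summed level of the list without Fscn1 was 999 to 1582 CPM in ILT3+ and 1276 to 2940 CPM in ILT3- libraries.

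The 5 lists of conventional type 1, conventional type 2 and mature dendritic cells, monocytes and macrophages hold 68 genes beyond the 10 above. Of 45 tested, 5 were called higher and 0 lower, where 1.96% of all tested genes were called higher and 2.31% in either direction. The median log2 fold change of the 45 was 1.51, against -0.02 over all tested genes. The 45 include the 12 tested macrophage list genes, which were all highest in ILT3+ sample 1 and had a median of 3.74. The 5 were Ccl22, Apol7c, Anxa3, Cd83 and Ccr2. With the block 12 were called higher and 1 lower, where 4.18% of all genes were called higher and 6.81% in either direction. The 12 included 6 macrophage list genes, Slc40a1, C1qc, C1qb, Emr1, Hmox1 and Axl. ILT3+ sample 1 held 99.2%, 95.5%, 95.1%, 92.7%, 84.5% and 44.1% of their ILT3+ reads, in that order. The block count thus does not stand for an even rise over the 3 ILT3+ libraries. Without ILT3+ sample 1 the count was 2 of 47 tested, and 1.51% of all genes were called higher and 1.80% in either direction in that setting. It was 1 without ILT3- sample 2, and 0 without ILT3+ sample 2, without ILT3+ sample 3 or without ILT3- sample 3, where 21, 24 and 18 genes had an unadjusted p under 0.05 by edgeR. Over all genes, 1460 of 14337, 1486 of 14344 and 1912 of 14409 had such a p in those fits. Without both samples numbered 1 the count was 10 higher and 1 lower of 43 tested, where 4.48% of all genes were called higher and 5.64% in either direction.

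Several relatives and partners of the lineage genes rose in ILT3+ cells. Batf, the family member of effector T cells, averaged 189 ± 36.8 CPM over ILT3+ libraries and 61.0 ± 17.6 CPM over ILT3- libraries (± SD, n = 3 per group, log2 fold change 1.63, adjusted p = 0.0216). Id2, an inhibitor of E proteins needed by dendritic cells and by effector lymphocytes, averaged 275 ± 9.82 CPM over ILT3+ libraries and 35.5 ± 6.61 CPM over ILT3- libraries (log2 fold change 2.96, adjusted p = 0.000906). These 2 were the called genes among 11 tested lineage transcription factors other than Batf3 and Zbtb46, and 0 fell. Kit and Pdgfrb, receptor tyrosine kinases of the same class as Flt3 and Csf1r, rose as well. Kit had 1333, 2740 and 2383 reads in ILT3+ and 106, 271 and 317 in ILT3- samples 1, 2 and 3 (log2 fold change 3.22, adjusted p = 0.00520). Pdgfrb had 68, 106 and 115 reads in ILT3+ and 2, 1 and 1 in ILT3- samples (log2 fold change 5.94, adjusted p = 0.00995). Csf2rb2, a beta chain of the IL-3 receptor in mice, had 43, 56 and 42 reads in ILT3+ and 0, 0 and 2 in ILT3- samples (adjusted p = 0.0285), with 74.8% of its reads uniquely placed. The ligand genes Csf1 and Flt3l had adjusted p of 0.611 and 0.967.

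The genes nearest to Batf3 and to Csf1r were found by the root mean square difference of log2 CPM, centred on each gene's mean over the 6 libraries, among genes of at least 10 CPM on average. For Batf3 they were Serinc2 (0.405 on the log2 scale), Ablim3 (0.425), Serpinb1a (0.506), Mef2c (0.617) and Cntn1 (0.620). All 5 were called higher (adjusted p = 0.00317 to 0.0170), which is not independent of their choice by likeness to Batf3, and Serinc2 stood at 33.9, 34 and 27 CPM in ILT3+ samples 1, 2 and 3, against 1.2, 0.0790 and 0.727 CPM in ILT3- samples 1, 2 and 3. For Csf1r they were Vcam1 (1.18), C1qb (1.19), Emr1 (1.35), which encodes the macrophage marker F4/80, Mpeg1 (1.52) and Cd7 (1.55, with 21.6% of its reads uniquely placed). None of these 5 was called without the block (adjusted p = 0.151 to 0.761), and with it C1qb (adjusted p = 0.0146) and Emr1 (adjusted p = 0.0271) were. Among the 7 tested lineage genes the nearest pair was Flt3 and Cst3 (0.530), which both varied little, followed by Batf3 and Fscn1 (0.840), and the farthest was Zbtb46 and Csf1r (3.65).

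**Figure D5:**
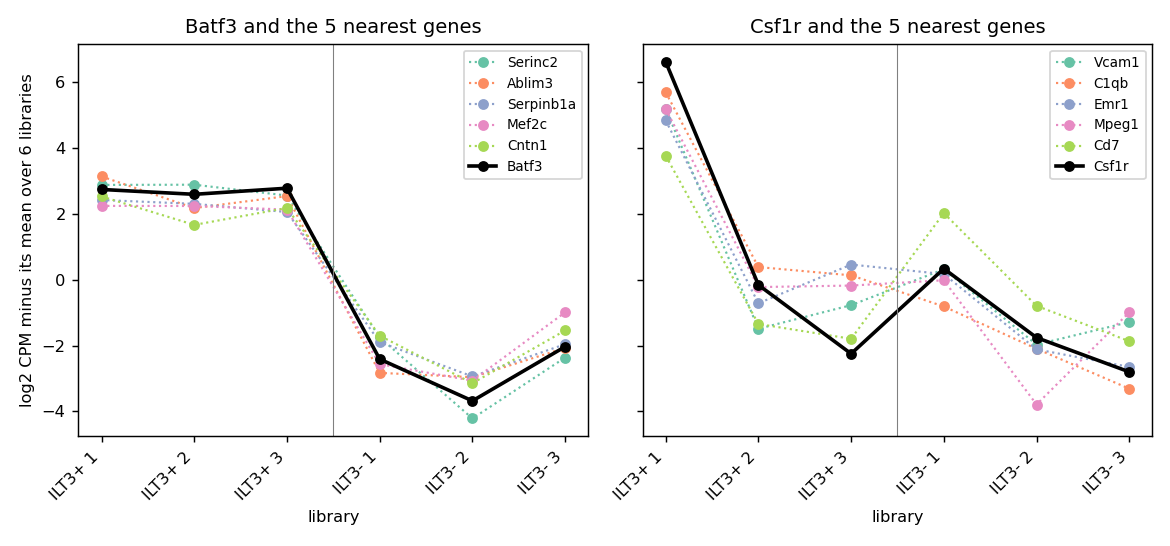
Log2 CPM minus its mean over the 6 libraries for Batf3 (left) and Csf1r (right), in black, and for the 5 nearest genes of each, in colour, with lines that only join the points of a gene. Batf3 and its nearest genes are level over the 3 ILT3+ libraries, while Csf1r and its nearest genes peak in ILT3+ sample 1.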

How the data were processed

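The authors deposited 1 table per sample with raw read counts per gene (total, unique, exon, intron and exon-exon reads), per the file headers. Per the labels' protocols, 1 ng of total RNA was amplified with SmartSeq V2 and made into libraries with Nextera XT. The submitters' processing notes name GRCm38. Aligner, counter, annotation and strand use: not given in the sources used here. Overlapping genes and copies can share reads.

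Total gene reads (including 24.0% to 28.3% intron reads per library) were tested with edgeR 4.0.16 in R 4.3.3: TMM factors, default expression filter (minimum count 10, total 15), robust quasi-likelihood fit on group alone, Benjamini-Hochberg adjustment over all tested genes at 0.05. CPM use library sizes scaled by TMM. The SE is the size of the log2 change divided by the square root of F. Exon lengths, deposited by the authors in another column, served for levels per length. Alternatives were unique and exon reads, RLE factors, no filter, DESeq2 1.42.0, limma-voom (limma 3.58.1), a replicate block and leaving out libraries. The scripts were tested on simulated data. There 43 of 187 DESeq2 calls were false, against 7 of 129 for edgeR and 7 of 121 for limma-voom.

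Samples 1, 2 and 3 of both groups deviated together from their group's mean, with correlations of 0.400, 0.260 and 0.271, all over the bound of 0.1. Unlike numbers passed it too, at 0.163 for ILT3+ sample 2 with ILT3- sample 3 and 0.117 for ILT3+ sample 3 with ILT3- sample 2. Pairs of a sample 1 with another number were at -0.305 to -0.258. The bound thus set apart only the samples numbered 1 and cannot tell how samples 2 and 3 pair. A pairing by number is read from the data, not given by the labels. The calls and adjusted p-values come from the unpaired fit unless the block is named beside them. No 2 libraries of a group agreed within sampling noise, with chi-square values of 18.3 to 99.9 per degree of freedom. ILT3+ sample 1 was at 70.4 and 74.8 against ILT3+ samples 2 and 3, which were at 18.3 against each other. ILT3- sample 1 was at 82 and 99.9 against ILT3- samples 2 and 3, which were at 35.1. Between the 2 samples numbered 1 the value was 66.6.

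Of 159 list symbols 155 matched by name and 2 through RefSeq synonyms (Emr1 and Chi3l3 in the files). The genes and lists were chosen with earlier results of these data known. Named from the lists were called genes, else up to 4 by smallest p, and the 2 most abundant, with the 5 nearest to Batf3 and Csf1r of at least 10 CPM, without predicted genes, clones, pseudogenes or antigen receptor segments. The rule was not applied in full to the B cell list or to the T cell and sort list. Xcr1, Irf8, Cadm1, Sirpa, Slc40a1, Spic, Siglec1, Treml4, Itgad, Cd209c, Foxp3, Itgb2, Csf1, Flt3l, Cd3e, Csf2, Siglech, Hspa1b and Fos were named outside that rule, after their values were seen. C1qc, Cd68, Mertk, Fcgr1, Mrc1, Marco, Timd4 and Cd163 of the macrophage list were likewise named outside the rule. Cadm1, Irf8 and Xcr1 come under it once the called gene Batf3 is left out of their list.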

Additional observations from a re-analysis of the deposited data

How the results depend on the processing

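Batf3 kept its call in 11 of 14 alternatives and Fscn1 in 9 of 14, with ranges of 5.47 to 6.97 and 3.49 to 4.6 on the log2 scale. All calls that were lost, were lost by leaving out 1 library. Lyz2 (1.18 to 2.59) and Csf1r (0.00 to 7.71) were called in none. With the replicate block 932 genes in all, 4 of the lineage genes and 13 of the wider lists were called (12 higher and 1 lower), against 316, 2 and 5 without it. Beyond the genes named with the block in the results, it changed no call among the 7. DESeq2 called 951 genes in all and 9 of the wider lists, and it called 3 lineage genes. DESeq2 gave Csf1r no adjusted p. Exon reads called 3 of the wider lists, and Flt3 could not be tested on them. Without both samples numbered 1, an alternative chosen with the data known, 786 genes in all and 11 of the wider lists were called, and Csf1r had too few reads. Leaving out 1 library each gave 31 to 322 genes in all, 0 to 2 lineage genes (3 or 4 of them at an unadjusted p under 0.05 where edgeR called 0) and 0 to 4 of the wider lists. Flt3 ranged from -0.05 (-0.0453, without ILT3- sample 2) to 0.54. Low read counts limit Itgax, Clec9a and Cd209a, for which no test was possible.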

Other observations

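Lists of other cell types in the same libraries were uneven. Of 7 tested plasmacytoid dendritic cell genes none was called by edgeR (6 at an unadjusted p under 0.05, 5 higher and 1 lower), and with the block 2 were higher and 1 lower. Bst2, an interferon-induced membrane protein gene, averaged 93.0 ± 8.69 CPM over ILT3+ libraries and 47.1 ± 8.95 CPM over ILT3- libraries (± SD, n = 3 per group, adjusted p = 0.0558). Runx2, Ccr9 and Pacsin1 had log2 fold changes of 0.78, 1.27 and -0.83 (adjusted p = 0.207, 0.212 and 0.116), and only 8.38% of Ccr9 reads were uniquely placed. Siglech, a defining marker of these cells, had 4, 4 and 2 reads in ILT3+ and 1, 10 and 4 in ILT3- samples 1, 2 and 3.

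Of 12 neutrophil list genes, S100a8, Elane, Camp, Retnlg and Cxcr2 had 0 reads in all libraries, and only Mmp9 was tested (adjusted p = 0.606), with 239, 18 and 0 reads in ILT3+ and 24, 0 and 1 in ILT3- samples 1, 2 and 3. The B cell list summed to 78.2, 42.4 and 35.8 CPM in ILT3+ samples 1, 2 and 3, against 36.4, 23.3 and 22.2 CPM in ILT3- samples 1, 2 and 3, with none of 6 tested genes called by edgeR and 1 at an unadjusted p under 0.05.

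Csf2, the gene of the growth factor GM-CSF, was distributed over the ILT3+ libraries in the opposite way to Csf1r. It had 7, 74 and 117 reads in ILT3+ samples 1, 2 and 3, against 2, 0 and 1 in ILT3- samples 1, 2 and 3, and only 52.2% of its reads were uniquely placed. It had too few reads for a test with all libraries, and was called without both samples numbered 1 (adjusted p = 0.00665).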
